A study of Mus musculus with 64 samples.

Results

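Crym and 6 genes of thyroid hormone action, Thra, Thrb, Dio2, Slco1c1, Klf9 and Hr, were followed in the hippocampus of 8 inbred mouse strains. They are 7 of the 32227 genes counted. Crym entered because it was near absent in NOD/ShiLtJ in these same libraries, so its level in that strain is given here as a description with no test. The other 6 were added as the receptors, activating enzyme, transporter and response genes of the hormone that Crym binds. Bulk RNA sequencing gave 64 hippocampus libraries, 4 labelled female and 4 labelled male for each strain. No treatment is named in the labels, and age is not given in the sources used here. The strains were NOD/ShiLtJ, which develops autoimmune diabetes, and C57BL/6J, 129S1/SvImJ, A/J, NZO/HlLtJ, which becomes obese, and the wild-derived WSB/EiJ, PWK/PhJ and CAST/EiJ. The labels do not say whether libraries of a group came from separate animals, so p-values measure the spread between these libraries, which may be partly technical.

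Thyroid hormone reaches the brain mostly as the prohormone T4. Slco1c1 is a carrier that brings T4 across brain capillaries and into astrocytes, Dio2 is the deiodinase that turns T4 into the active hormone T3, mainly in astrocytes, and Crym (mu-crystallin) is a cytosolic protein that binds T3 and also reduces cyclic ketimines. Thra and Thrb encode the nuclear receptors, and Klf9 and Hr are genes whose transcription the liganded receptors raise in brain. Levels are given as CPM, read counts scaled to a common library size with TMM factors, and they are compared between libraries for a gene and not between genes.

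The 64 libraries held 16607602 to 27759221 counts, with a median of 22176356.5. Of the markers of hippocampal neurons, Prox1, of dentate granule cells, was at 58.9 to 130 CPM and Fibcd1, of CA1 pyramidal cells, at 134 to 234 CPM. Other genes of the same lists varied more. Dsp, of dentate granule cells, was at 0.342 to 87.9 CPM and Spink8, of CA1 pyramidal cells, at 5.42 to 44.1 CPM. Markers of choroid plexus, a tissue next to the hippocampus, varied widely, with a summed level of 8 genes between 17.04 and 4828 CPM. The library most like each library came from its own strain in all 64. Against their own strain, 5 libraries stood apart by a lower correlation, namely NOD/ShiLtJ female 1, C57BL/6J male 4, 129S1/SvImJ female 1, A/J male 2 and WSB/EiJ female 1. Crym and Thra were each the highest of their strain in 4 of these 5. Thrb was the lowest of its strain in 5 of 5, and Dio2 and Klf9 each in 4 of 5. The share of all genes at such extremes in these libraries was not computed, so these counts are descriptions. Counts in bulk tissue cannot tell fewer cells of a type from less RNA per cell. All 7 genes passed the filter on low counts, as 17382 genes did.

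Crym had 5.65, 5.53, 5.64 and 5.63 CPM in the 4 NOD/ShiLtJ females and 5.96, 5.21, 5.56 and 5.98 CPM in the 4 NOD/ShiLtJ males, against a lowest value of 105.8, a median of 197 and a highest value of 275 CPM in the 56 libraries of the other 7 strains. The groups did not overlap, and the lowest library of the other strains was 17.7-fold above the highest of NOD/ShiLtJ. The mean was 5.65 ± 0.245 CPM in NOD/ShiLtJ (SD, n = 8) and 192 ± 41.4 CPM in the other strains (SD, n = 56), so NOD/ShiLtJ had 2.94% of that level. The fitted log2 difference was -5.06 (SE 0.0967). The transcript was low but counted in every NOD/ShiLtJ library, with 111 to 152 counts each. NOD/ShiLtJ females and males lay side by side, at 5.61 ± 0.0546 and 5.68 ± 0.366 CPM (SD, n = 4 each).

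**Figure D1:**
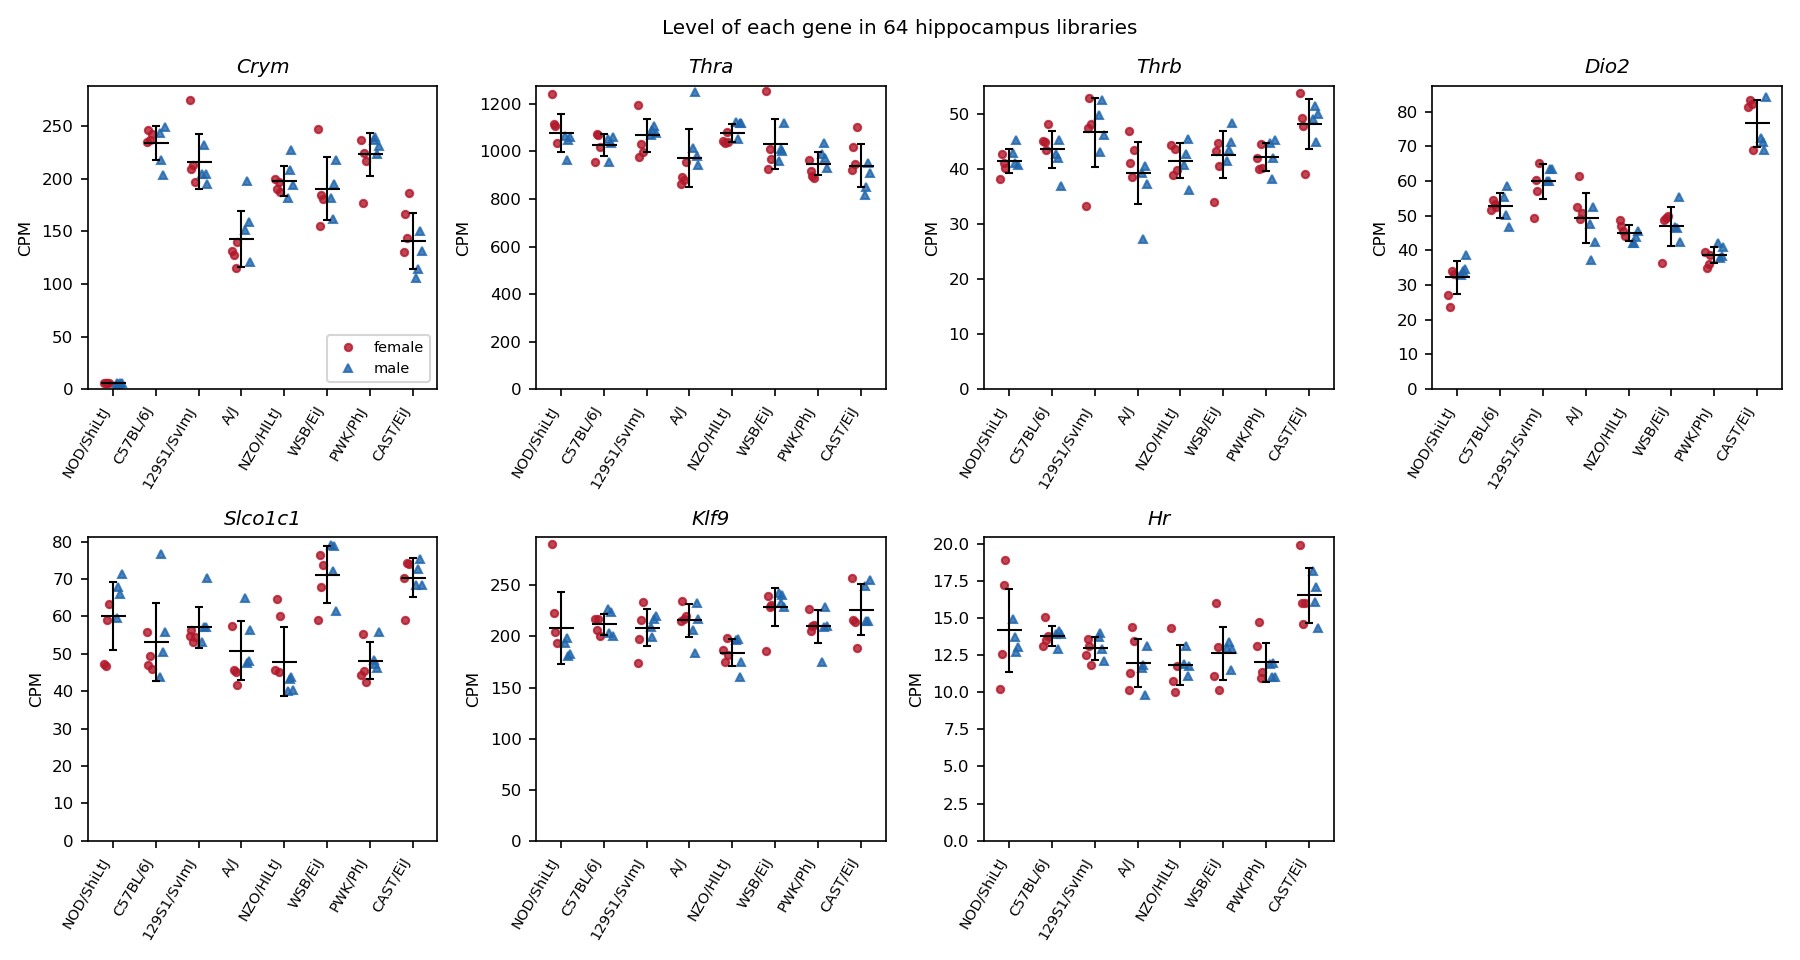
Level of each of the 7 genes in 64 hippocampus libraries, in CPM on linear axes that start at 0, by strain on the horizontal axis. Red circles are females, blue triangles males, and black bars the mean ± SD of the 8 libraries of a strain. Crym lay at 5.21 to 5.98 CPM in NOD/ShiLtJ and at 105.8 CPM or more in every other library, and Dio2 was at 68.9 CPM or more in all CAST/EiJ libraries.

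Crym also differed among the strains that express it. Over the 7 strains without NOD/ShiLtJ it passed the F test (edgeR adjusted p = 1.22e-13, log2 range of fitted strain means 0.74), as did 87.4% of all genes tested. C57BL/6J was highest at 234 ± 15.9 CPM, followed by PWK/PhJ at 223 ± 20.4, 129S1/SvImJ at 216 ± 26.3, NZO/HlLtJ at 198 ± 14.2 and WSB/EiJ at 190 ± 30.0 CPM (SD, n = 8 each). A/J at 143 ± 26.6 and CAST/EiJ at 141 ± 26.6 CPM formed a lower pair (SD, n = 8 each). Between neighbours in that order, the step from WSB/EiJ down to A/J was past the threshold (log2 0.42, SE 0.0816, edgeR adjusted p = 3.48e-05), and the other 5 steps were not, at log2 0.02 to 0.13. Of the 21 pairs of these strains 13 (61.9%) differed at an adjusted p under 0.05, against 40.8% of all genes and pairs pooled over the 28 pairs of 8 strains. The highest libraries in 129S1/SvImJ (275 CPM), WSB/EiJ (248 CPM) and A/J (198 CPM) were libraries that stood apart from their strain.

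The genes next to Crym on chromosome 7 did not share its pattern. Uqcrc2, a subunit of respiratory complex III and the nearest tested gene on one side, had a log2 difference of -0.04 (SE 0.0246) between NOD/ShiLtJ and the mean of the other strains. Anks4b, an ankyrin repeat protein of epithelial brush borders and the nearest on the other side, was at 0.58 (SE 0.205), with a mean of 0.377 CPM over all libraries. Tmem159, a lipid droplet protein, was at 0.71 (SE 0.0664), Dnah3, an axonemal dynein chain, at 0.17 (SE 0.211), Pdzd9 at -0.43 (SE 0.264) and 9030407P20Rik at -0.27 (SE 0.0648). Order along the chromosome was read from an annotation of an earlier build. Of these 6 neighbours, none was as much as 1 log2 unit lower in NOD/ShiLtJ.

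The receptors differed little in size between strains. Thra, the main thyroid hormone receptor of brain, averaged 1079 ± 80.1 CPM in NOD/ShiLtJ and 1009.2 ± 92.4 CPM in the other strains (SD, n = 8 and 56), a log2 difference of 0.10 (SE 0.0379). Its strain means ran between 939 ± 90.3 CPM in CAST/EiJ and that NOD/ShiLtJ value, and passed the F test over 8 strains (edgeR adjusted p = 0.000163, log2 range 0.20). Libraries of all strains overlapped, and no step between neighbouring strains passed the threshold. Thra overlaps Nr1d1, a circadian repressor on the opposite strand with a mean of 91.1 CPM, over 1075 bases in the earlier annotation, and the strand rule of the counting was not stated, so reads in the overlap could have been given to either. Thrb, the receptor of hormone feedback and of sensory development, averaged 41.5 ± 2.13 CPM in NOD/ShiLtJ and 43.4 ± 5.06 CPM in the other strains (SD, n = 8 and 56), a log2 difference of -0.06 (SE 0.0530). It was highest in CAST/EiJ at 48.1 ± 4.50 CPM and lowest in A/J at 39.3 ± 5.69 CPM (SD, n = 8 each; edgeR F test, adjusted p = 0.00225, log2 range 0.30), again with no step between neighbours past the threshold.

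Dio2, the T4-activating deiodinase, had the widest strain range after Crym. It had 81.3, 83.3, 82.2 and 69.1 CPM in the CAST/EiJ females and 72.5, 71.2, 68.9 and 84.4 CPM in the CAST/EiJ males, against a lowest value of 23.6 and a highest of 65.1 CPM over the other 7 strains. CAST/EiJ thus lay above every other library, and against the mean of the other 7 strains its log2 difference was 0.75 (SE 0.0474, edgeR adjusted p = 1.64e-20). At the other end, Dio2 had 27.0, 23.6, 34.0 and 33.1 CPM in NOD/ShiLtJ females and 33.0, 33.9, 34.5 and 38.6 CPM in NOD/ShiLtJ males, against 35.0 to 84.4 CPM in the other strains. Only the highest NOD/ShiLtJ library reached into the range of the rest. The means were 32.2 ± 4.70 CPM in NOD/ShiLtJ and 52.7 ± 12.5 CPM elsewhere (SD, n = 8 and 56), a log2 difference of -0.68 (SE 0.0542), in the same contrast that Crym was chosen on and so given with no p. Dio2 fell in PWK/PhJ to 38.6 ± 2.34 CPM (log2 -0.38, edgeR adjusted p = 1.20e-08) and rose in 129S1/SvImJ to 59.9 ± 4.94 CPM (log2 0.34, edgeR adjusted p = 7.93e-08). The F test over 8 strains gave an edgeR adjusted p of 4.88e-23 with a log2 range of 1.25. Strain accounted for 86.4% of the variance of log2 Dio2 over the 64 libraries, against 29.0% for Thrb and 58.0% for Slco1c1.

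Going down the order of Dio2, CAST/EiJ was above 129S1/SvImJ (log2 0.36, edgeR adjusted p = 8.22e-06), and 129S1/SvImJ was above C57BL/6J by a smaller step (log2 0.18, edgeR adjusted p = 0.0457). C57BL/6J, A/J, WSB/EiJ and NZO/HlLtJ followed with no step between neighbours past the threshold. PWK/PhJ was below NZO/HlLtJ (log2 step 0.22, edgeR adjusted p = 0.00514), and NOD/ShiLtJ below PWK/PhJ (log2 step 0.26, edgeR adjusted p = 0.00104). Dio2 is a gene of astrocytes in brain. The mean log2 CPM of 8 astrocyte markers, each gene weighing alike, was 7.85 in CAST/EiJ, 7.48 in 129S1/SvImJ, 7.60 in C57BL/6J, 7.60 in A/J, 7.51 in WSB/EiJ, 7.77 in NZO/HlLtJ, 7.87 in PWK/PhJ and 7.66 in NOD/ShiLtJ, given in the order of falling Dio2. CAST/EiJ, highest in Dio2, had the second highest of these means. The strain second in Dio2, 129S1/SvImJ, had the lowest of these means and PWK/PhJ, with the second lowest Dio2, the highest. The summed level of the 8 genes ran between 2695 CPM in a WSB/EiJ library and 5763 CPM in a CAST/EiJ library, most of it from Slc1a2 (mean 2910 CPM). The part of cell composition in these differences was not tested.

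The promoter sequences of Dio2 and Thrb are shown because Dio2 carried the widest strain difference of the 6 genes and Thrb encodes a receptor that acts on promoters. Each is the 250 bases before a start of the gene in RefSeq (build GRCm38.p6), 5′ to 3′ on the gene's strand, and the capitals mark motifs. Dio2 lies at chr12:90739039-90739288 on the minus strand, and Thrb at chr14:17660710-17660959 on the plus strand.
Dio2: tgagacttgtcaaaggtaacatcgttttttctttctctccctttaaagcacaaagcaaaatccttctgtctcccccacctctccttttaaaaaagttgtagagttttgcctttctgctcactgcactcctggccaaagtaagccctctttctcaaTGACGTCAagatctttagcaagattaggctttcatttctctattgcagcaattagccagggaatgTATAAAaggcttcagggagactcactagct
Thrb: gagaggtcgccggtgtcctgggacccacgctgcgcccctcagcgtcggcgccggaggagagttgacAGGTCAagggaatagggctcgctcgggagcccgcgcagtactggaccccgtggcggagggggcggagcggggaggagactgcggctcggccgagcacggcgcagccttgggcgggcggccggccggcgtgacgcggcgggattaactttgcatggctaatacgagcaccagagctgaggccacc
The search covered 3 motifs on both strands, the cAMP response element TGACGTCA, the thyroid hormone receptor half-site AGGTCA and the TATA box TATAAA. The Dio2 window held TGACGTCA at 95 to 88 bases before the start and TATAAA at 30 to 25 bases before it. The Thrb window shown held AGGTCA at 184 to 179 bases before the start. A second Thrb start in the table, with its window at chr14:17981394-17981643, held TATAAA at 167 to 162 bases before it and neither of the other motifs. Of 32851 RefSeq promoter windows of the same length, 1.55% held TGACGTCA, 14% held AGGTCA and 12.4% held TATAAA. The windows of Klf9 and Slco1c1 held none of the 3 letter strings. A match says only that these letters are in the reference window, and nothing of the other strains' own sequence.

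Slco1c1, the T4 transporter, had its own order of strains. It was at 71.1 ± 7.62 CPM in WSB/EiJ and 70.3 ± 5.20 CPM in CAST/EiJ, which rose against the mean of the other 7 strains (log2 0.38 and 0.36, edgeR adjusted p = 2.14e-06 and 2.97e-06). NZO/HlLtJ, PWK/PhJ and A/J fell, at 47.9 ± 9.23, 48.1 ± 4.93 and 50.8 ± 7.89 CPM (SD, n = 8 each; log2 -0.29, -0.27 and -0.18, edgeR adjusted p = 0.000522, 0.000676 and 0.0321). NOD/ShiLtJ averaged 60.1 ± 9.10 CPM against 56.9 ± 11.7 CPM in the other strains (SD, n = 8 and 56), a log2 difference of 0.09 (SE 0.0651). The one step past the threshold between neighbours lay between CAST/EiJ and NOD/ShiLtJ (log2 0.23, edgeR adjusted p = 0.0197). The F test over 8 strains gave an edgeR adjusted p of 1.12e-09 with a log2 range of 0.58. Within groups Slco1c1 moved with markers of choroid plexus in 7 of 8 strains and against them in NOD/ShiLtJ. Their 8 summed genes had medians of 461 CPM in WSB/EiJ, 1774 in CAST/EiJ, 880 in NZO/HlLtJ, 96.3 in PWK/PhJ, 64.5 in A/J and 1314 CPM in NOD/ShiLtJ. With the choroid plexus score in the model the strain difference of Slco1c1 still passed the F test, with a log2 range of 0.60. That model gave all strains a common slope, which the opposite relation in NOD/ShiLtJ does not share. The part of tissue composition in these strain differences was not tested.

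The response genes Klf9 and Hr did not mark NOD/ShiLtJ. Klf9, a Krüppel-like transcription factor, averaged 208 ± 35.7 CPM in NOD/ShiLtJ and 212 ± 21.3 CPM in the other strains, and Hr, a corepressor that takes its name from the hairless mouse, 14.2 ± 2.79 and 13.1 ± 2.04 CPM (SD, n = 8 and 56). Their log2 differences were -0.03 (SE 0.0488) and 0.12 (SE 0.0665). NOD/ShiLtJ spanned 180 to 290 CPM of Klf9, its highest library being female 1, one that stood apart. Klf9 fell in NZO/HlLtJ to 184 ± 13.4 CPM (log2 -0.23, edgeR adjusted p = 0.000193) and rose in WSB/EiJ to 229 ± 18.4 CPM (log2 0.13, edgeR adjusted p = 0.0222). Markers of CA1 neurons, with which Klf9 moved within groups, summed over 7 genes to 1075 to 1290 CPM in NZO/HlLtJ. In WSB/EiJ they summed to 1406 to 1571 CPM. By falling Klf9, the mean log2 CPM of these markers was 7.06 in WSB/EiJ, 7.17 in CAST/EiJ, 6.72 in A/J and 6.83 in C57BL/6J. It was then 7.05 in PWK/PhJ, 6.71 in 129S1/SvImJ, 6.93 in NOD/ShiLtJ and 6.64 in NZO/HlLtJ. The part of these markers in the Klf9 differences was not tested. Oligodendrocyte markers, with which Hr moved within groups, summed to 2879 to 3834 CPM in CAST/EiJ and 2739 to 6409 CPM over the other strains. Hr rose in CAST/EiJ to 16.5 ± 1.84 CPM (log2 0.38, edgeR adjusted p = 1.58e-06) and fell in NZO/HlLtJ to 11.8 ± 1.34 CPM (log2 -0.18, edgeR adjusted p = 0.0376; SD, n = 8 each). Over 8 strains the edgeR F test gave adjusted p = 0.000884 for Klf9 (log2 range 0.31) and 9.87e-06 for Hr (log2 range 0.48).

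**Figure D2:**
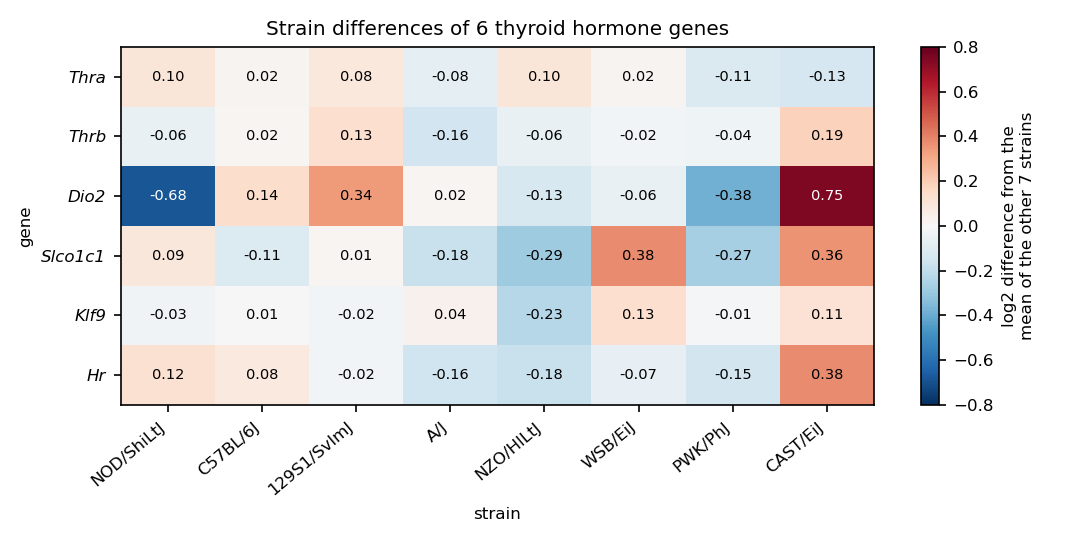
Log2 difference of each strain (columns) from the mean of the other 7 strains for the 6 genes other than Crym (rows), with the value in each cell and red for higher, blue for lower. The widest values were 0.75 and -0.68, both of Dio2, in CAST/EiJ and NOD/ShiLtJ.

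Taking the 6 genes as a group, 6 of 6 passed the F test over 8 strains at an adjusted p under 0.05, as did 89.2% of all genes, and 1 of 6, Dio2, also had a log2 range of 1 or more, as did 27.6% of all genes. Each of the 7 strains other than NOD/ShiLtJ was also set against the mean of the rest, which gave 42 tests. In these, 11 (26.2%) were higher and 10 (23.8%) lower at an adjusted p under 0.05, near the 22.6% and 20.1% of all genes, and 0 of 42 also reached 1 log2 unit, against 5.47% of all genes. CAST/EiJ held 5 of the higher calls, in Thrb, Dio2, Slco1c1, Klf9 and Hr, and 1 lower call, in Thra (log2 -0.13, edgeR adjusted p = 0.00295). NZO/HlLtJ held 4 lower calls, in Dio2, Slco1c1, Klf9 and Hr, and 1 higher call, in Thra (log2 0.10, edgeR adjusted p = 0.0384). These contrasts share libraries, since each strain is part of the mean for the others. The share of all genes called in CAST/EiJ alone or in NZO/HlLtJ alone is not given here. Nothing particular to these genes is therefore read from the counts of calls in those strains. Between pairs of strains, 77 of 168 tests (45.8%) passed, near the 40.8% of all genes and pairs, most often for Dio2 (24 of 28 pairs) and Slco1c1 (17 of 28), less often for Thra (13), Hr (10), Klf9 (7) and Thrb (6). A single pair of these reached 1 log2 unit, Dio2 between NOD/ShiLtJ and CAST/EiJ (log2 -1.25, SE 0.0681).

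Sex made no difference past the threshold, in the mean over strains or within a strain. Crym averaged 169 ± 74.3 CPM in females and 169 ± 73.3 CPM in males (SD, n = 32 each), a spread that the strains set, and the log2 difference of females minus males was 0.00 (SE 0.0431). For the 6 others it ran between -0.08 for Slco1c1 (SE 0.0436) and 0.03 for Hr (SE 0.0448). In edgeR 0 of 7 genes were called over all strains, against 0.167% of all genes, 0 of 7 had an unadjusted p under 0.05, and DESeq2 also called 0. Within single strains 0 of 56 tests passed, against 0.15% of all genes. The interaction of strain and sex called 0 of 7 in edgeR and 0 in DESeq2, against 0.046% of all genes. An unadjusted p under 0.05 was found for 4 of 7 in edgeR, against 10.7% of all genes, and for 4 of 7 in DESeq2. The mean over strains can hide differences of opposite sign. Females minus males, Crym was at log2 -0.29 in A/J (SE 0.116) and 0.32 in CAST/EiJ (SE 0.116). Thra was at -0.22 (SE 0.0716) and 0.18 (SE 0.0716) in the same strains, and none of these passed after adjustment. The A/J males included male 2, a library that stood apart, at 198 CPM of Crym and 1250 CPM of Thra. The other A/J males had 121 to 159 CPM of Crym and 944 to 1016 CPM of Thra. The widest difference within a strain was of Slco1c1 in NZO/HlLtJ (log2 0.37, edgeR adjusted p = 0.867). Females had 53.9 ± 9.89 CPM and males 41.8 ± 1.87 CPM (SD, n = 4 each). The females were at 45.8, 64.6, 45.3 and 60.1 CPM, and the males at 40.1 to 43.7 CPM. The mean log2 CPM of choroid plexus markers was 1.59, 6.01, 4.37 and 5.81 in those females and 0.99 to 4.46 in the males. The part of choroid plexus in this difference was not tested. Each of the 16 groups has a block of title numbers of its own, so number cannot be told apart from sex or from strain, and the CAST/EiJ females lie after all other libraries.

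Within strain and sex, Crym moved with Thra. After each library's log2 level was taken relative to the mean of its own group of 4, Pearson's r of Crym and Thra was 0.77 and Spearman's rho 0.67 over 64 libraries (permutation within groups, two-sided, adjusted p = 0.00084 for both over 84 relations computed; the raw p of 1e-05 is the smallest that 100000 permutations can give). Without the 2 libraries farthest in Crym, r was 0.70, and without the 5 libraries that stood apart it was 0.64 (permutation, adjusted p = 0.00462). The correlation was positive in 7 of 8 strains, from 0.25 in PWK/PhJ to 0.99 in CAST/EiJ, and -0.12 in NZO/HlLtJ. Among 17381 genes Thra ranked 6 by its within-group r with Crym, behind Flot1 at 0.82. Of all genes 8.21% had an r over 0.5 with Crym and 7.32% one under -0.5, so many genes vary together among libraries of a group.

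**Figure D3:**
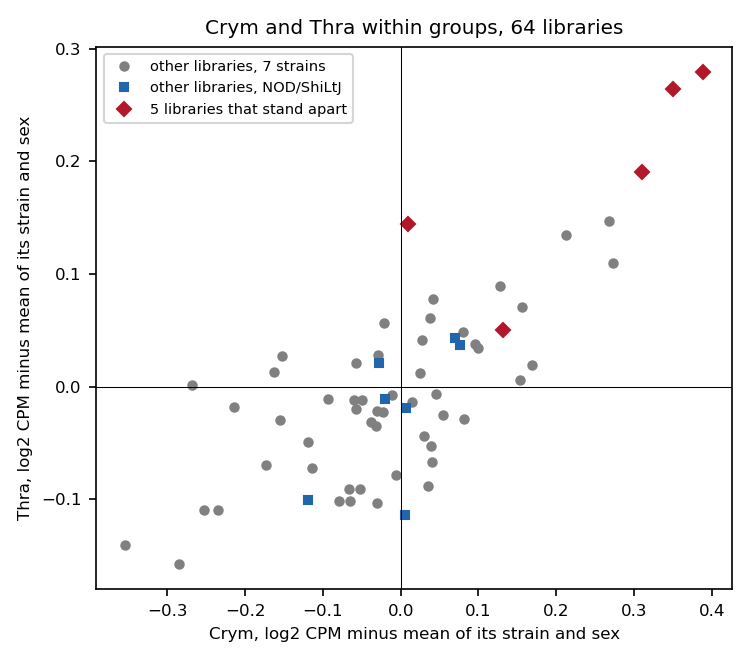
Log2 CPM of Crym (horizontal) and Thra (vertical) in each of the 64 libraries, minus the mean of its strain and sex. Red diamonds are the 5 libraries that stand apart, blue squares the other NOD/ShiLtJ libraries and grey circles the other libraries of the 7 other strains. The points run from lower left to upper right (r = 0.77), with 3 of the diamonds at the top right end.

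Of the 21 pairs of the 7 genes, 3 passed by both coefficients. The share of all gene pairs that would pass was not computed. Thra and Slco1c1 moved in opposite directions (r = -0.46, rho = -0.51, permutation, adjusted p = 0.00364 and 0.00336), and Thrb and Dio2 together (r = 0.50, rho = 0.43, permutation, adjusted p = 0.0124 and 0.0222). Thra and Slco1c1 had a positive r in 1 of 8 strains, CAST/EiJ at 0.10, and Thrb and Dio2 in 6 of 8, with -0.26 in NOD/ShiLtJ and -0.12 in NZO/HlLtJ. The Thrb and Dio2 relation no longer passed without the 5 libraries that stood apart (r = 0.14, permutation, adjusted p = 0.630). In the strains with none of those 5, its r was 0.70 in CAST/EiJ, 0.47 in PWK/PhJ and -0.12 in NZO/HlLtJ. Of 63 relations with marker lists 6 passed, again with no share of all genes computed beside them. Slco1c1 went with the choroid plexus markers (r = 0.56, rho = 0.51, permutation, adjusted p = 0.00364 and 0.00958), Hr with the oligodendrocyte markers (r = 0.54, rho = 0.48, permutation, adjusted p = 0.00364 and 0.0133) and Klf9 with the CA1 markers (r = 0.38, rho = 0.44, permutation, adjusted p = 0.0223 and 0.0175). By strain, r of Slco1c1 with choroid plexus lay between 0.13 and 0.93 in 7 strains and was -0.81 in NOD/ShiLtJ. For Hr with the oligodendrocyte markers it was positive in 8 of 8 strains, up to 0.96 in NOD/ShiLtJ, and for Klf9 with the CA1 markers in 7 of 8, with -0.09 in NOD/ShiLtJ. Crym and Thra both ran against the thalamus markers (r = -0.51 and -0.47, rho = -0.50 and -0.41, permutation, adjusted p of r = 0.00364 and 0.00945), and Thra against the astrocyte markers (r = -0.60, rho = -0.50, permutation, adjusted p = 0.00168 and 0.00672). Without the 5 libraries, Thra against thalamus no longer passed (r = -0.35, permutation, adjusted p = 0.0912) and the other 5 did. The part of tissue composition in the relations between the genes was not tested.

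Around these genes, a list of 54 other genes of thyroid hormone action was examined, of which 48 passed the count filter. It was drawn up with earlier results of these data known. Of the 48, 43 (89.6%) passed the F test over strains, beside the 89.2% of all genes given above, and 8 (16.7%) also had a log2 range of 1 or more, beside 27.6%. The median range was 0.47 in the list and 0.55 over all genes tested. The 8 were Slco1a5 (range 3.002, mean 0.233 CPM) and Slco4a1 (1.14), both organic anion transporters, Iyd (2.55), which recovers iodide from iodotyrosines, Sult1a1 (1.97), a sulfotransferase, Rxrg (1.30), a retinoid X receptor that pairs with thyroid hormone receptors, and the T3-responsive genes Hcrtr1 (1.70), Flywch2 (1.20) and Thrsp (1.17), with edgeR adjusted p between 8.78e-27 for Iyd and 0.0170 for Slco1a5. The most abundant others were Mbp, myelin basic protein (mean 1752 CPM, range 0.81), Nrgn, neurogranin (984 CPM, range 0.40), and Ttr, transthyretin (995.5 CPM), a product of choroid plexus that did not pass (edgeR adjusted p = 0.852).

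In NOD/ShiLtJ, 9 of the 48 (18.8%) were higher and 7 (14.6%) lower than the mean of the other strains at an adjusted p under 0.05, beside 21.4% and 18.2% of all genes, and nothing is read from these counts since Crym was chosen on that contrast. The median absolute log2 difference was 0.12 in the list and 0.12 over all genes. Iyd had 4.19 to 5.62 CPM in NOD/ShiLtJ, a mean of 5.09 ± 0.506 (SD, n = 8), and next came C57BL/6J at 3.75 ± 0.386 and NZO/HlLtJ at 3.20 ± 0.916 CPM, with 0.865 to 1.26 CPM as the means of the 5 others. Its log2 difference was 1.81 (SE 0.0977), the sole one of the list past 1 unit. Iyd is also among the CA2 and CA3 markers used here, whose 6 genes summed to 225 to 295 CPM in NOD/ShiLtJ and 173 to 340 CPM elsewhere. Of the 14 T3-responsive genes, 4 were lower and 2 higher at that threshold, and 8 did not pass. The lower ones were Dbp, a circadian factor (log2 -0.39, SE 0.0718), Gls2, a glutaminase (-0.39, SE 0.0609), Hcrtr1, an orexin receptor (-0.48, SE 0.123), and Camk4, a calcium-dependent kinase (-0.25, SE 0.0861). The higher ones were Mbp (0.44, SE 0.0572) and Sema7a, a semaphorin (0.10, SE 0.0388). Of the 8 transporters tested, 3 were lower and 1 higher at that threshold. The amino acid transporter Slc7a5, which also carries thyroid hormone, was lower at -0.24 (SE 0.0444), and Slco4a1 was higher at 0.52 (SE 0.140).

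**Figure D4:**
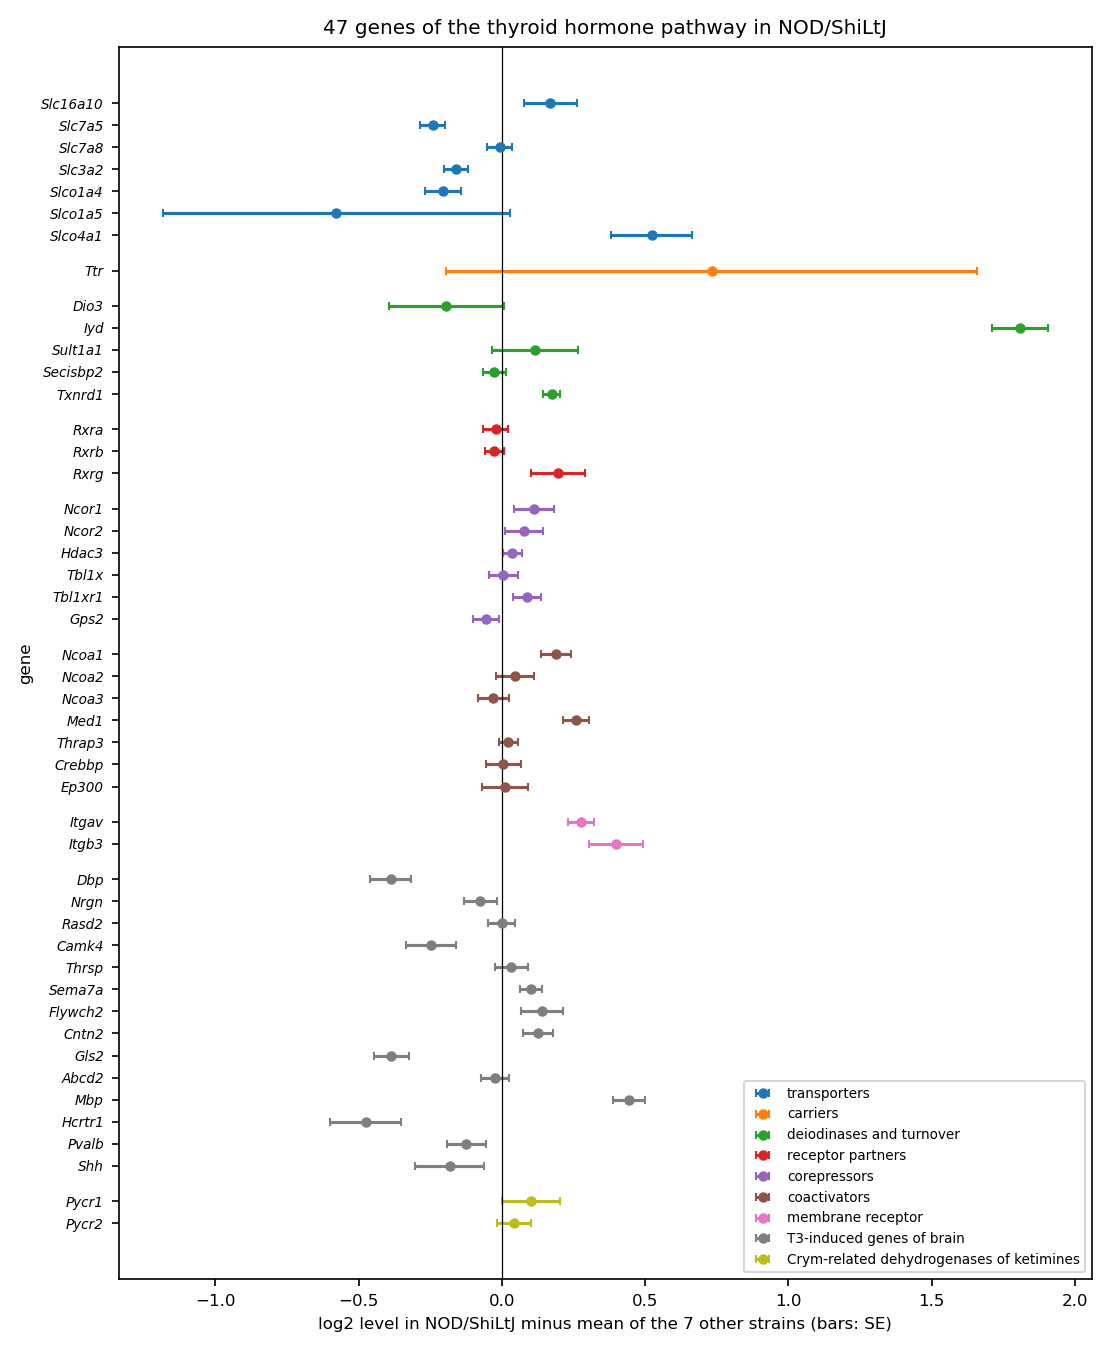
Log2 difference of NOD/ShiLtJ from the mean of the 7 other strains (horizontal) for 47 of the 48 tested genes of the list (vertical), coloured by role, with bars of 1 SE. Most points lie within 0.5 of 0, and Iyd stands alone at 1.81.

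The genes whose levels followed Crym most closely over all 64 libraries were Nudt19, a coenzyme A diphosphatase (r = 0.97), Slc18b1, a polyamine transporter (r = 0.87), and Capg, an actin-capping protein (r = 0.87). These r values are descriptions over libraries that share strains, and NOD/ShiLtJ was the lowest strain for all 3 genes. Nudt19, also on chromosome 7, had 18.2 to 21.3 CPM in NOD/ShiLtJ and strain means of 46.8 to 55.1 CPM elsewhere. Over the 56 libraries without NOD/ShiLtJ the closest were Bub3 (r = 0.86), Tceal6 (r = 0.81) and Isoc2b (r = 0.80). The closest to Dio2 included Pnma2 (r = 0.83) and Aldh5a1 (r = 0.79), both highest in CAST/EiJ and lowest in NOD/ShiLtJ as Dio2 was. The closest to Slco1c1 were Ephx1, Serinc2 and Slc12a4 (0.73 to 0.78), to Thra Ypel3, Mrpl41 and Cenpb (0.77 to 0.79), to Thrb Phf3, Xpot and Eea1 (0.73 to 0.76), to Klf9 Lingo3, Abi1 and Mboat2 (0.74 to 0.80) and to Hr Apln, Kcnk13 and Tarsl2 (0.65 to 0.72).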

How the data were processed

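Per the labels' protocols, total hippocampal RNA went through a TRIzol Plus purification with DNase treatment, before TruSeq library preparation. The authors deposited whole-number counts per gene for all 64 libraries, on build GRCm39 per the submitters' processing notes; the aligner, the counter and the use of strand are not given in the sources used here. Columns were matched to sample titles by name; 50 names open the title exactly, and 14 (2 NZO/HlLtJ males, all WSB/EiJ and the CAST/EiJ females) lack 1 final digit of it and open no other title. Symbols, gene order and overlaps came from GENCODE M21, on GRCm38, which named 32095 of 32227 identifiers (99.6%), and promoters came from RefSeq.

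Counts were tested with the quasi-likelihood test of edgeR 4.0.16 (R 4.3.3) with TMM scaling, filterByExpr (minimum count 10, minimum total 15) and a mean for each of 16 groups (48 residual degrees of freedom). P-values were adjusted by Benjamini-Hochberg over 17382 genes, with a threshold of 0.05. Within-group relations used log2 CPM with a prior count of 2. The fit was tested on simulated data. No 2 libraries of a group agreed within sampling noise (lowest chi-square per degree of freedom 2.86). A library stood apart when its mean correlation with its strain lay over 3 median absolute deviations below the median.

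The members and lists were chosen with earlier results of these data known. Named genes were the 7 members, listed pathway genes with a log2 range of at least 1 and their 3 most abundant others, the 3 protein-coding genes most like each member, and the 3 tested genes on either side of Crym; Slc7a5, Dbp, Gls2, Camk4, Sema7a and Flot1 were named after their values were seen. Some genes that this rule or the list covers are not reported here. Alternatives are given in the closing section.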

Additional observations from a re-analysis of the deposited data

Results flagged for a closer look

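In 112 groups of 4 libraries (7 genes in 16 groups), 5 had a highest or lowest library set far off from the other 3, and chance flags about 1 in 20 such groups. Dio2 was at 36.5 CPM in WSB/EiJ female 1, a library that stood apart from its strain, against 48.9 to 49.8 CPM in the other 3 females. Dio2 was at 69.1 CPM in CAST/EiJ female 4, against 81.3 to 83.3 CPM in the other 3. Thra was at 963 CPM in NOD/ShiLtJ male 2, against 1047 to 1064 CPM, and at 1054 CPM in NZO/HlLtJ male 2, against 1119 to 1125 CPM. Crym was at 5.53 CPM in NOD/ShiLtJ female 2, against 5.63 to 5.65 CPM, a gap that is wide only against a very narrow spread. None of the 7 genes showed a strain-by-sex interaction past the threshold.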

How the results depend on the processing

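With each of the 64 libraries left out in turn, Crym in NOD/ShiLtJ against the other strains stayed at a log2 of -5.07 to -5.04. Crym's range over the other 7 strains stayed at 0.72 to 0.79, called pairs of strains at 86 to 94 and called pathway genes at 8 to 9. These fits kept the gene filter and the dispersion trend of the full fit. Pairs without the strain of the omitted library kept their calls from the full fit, so much of the count of pairs could not move. Within-group relations ran from 7 to 15, reaching 15 without PWK/PhJ female 4 and 14 without NOD/ShiLtJ female 2, against 9 with all libraries. Of 53 alternatives on these main results 48 moved none by over 1.5 times or across the threshold; they covered DESeq2, its size factors, no count filter, a choroid plexus covariate, an additive model, omission of CAST/EiJ and, chosen after seeing the data, omission of the 5 libraries that stood apart. The exceptions followed from their own construction. A mean count of at least 50 tests fewer genes and left 4 pathway genes called. With no minimum on the fold, 6 members, 21 tests of a strain against the rest and 43 pathway genes passed, and with a log2 range of at least 2, 0 of the 6 members did. No paired analysis was possible because the labels carry no replicate numbers. Aligning reads of 8 strains to a single reference, if that was done, could lower counts in strains far from it, which these files cannot show.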
